A study of Mus musculus with 8 samples.

Results

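Potassium channel genes other than the subunits of the ATP-sensitive channel were compared between 3 populations of sorted mouse islet cells. All genes whose symbol begins with Kcn were taken, leaving out Kcnj11 and Kcnj8, and a gene was kept when its expression reached 0.5 RPKM (reads divided by gene length and by library size) in at least 2 of the 8 libraries. This gave 43 genes of 97 Kcn symbols in a table of 46959 entries. The other 54 symbols stayed below that level, and 9 of them were at 0 in every library. Just inside the level were Kcnmb1, Kcnh5, Kcnj4 and Kcnab2, whose second-highest library was at 0.575, 0.610, 0.628 and 0.682 RPKM, and just outside it were Kcnip2 (0.462), Kcnn4 (0.361), Kcnn2 (0.315) and Kcnq1 (0.314). The genes were 17 voltage-gated pore subunits, 2 electrically silent subunits, 4 calcium- or sodium-activated pore subunits, 5 inward rectifiers, 5 2-pore channels, 7 accessory subunits, the regulator gene Kcnrg, and the antisense transcripts Kcnab3os and Kcnq1ot1. Classes were set by gene symbol, which places Kcnu1 in the calcium- or sodium-activated class.

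The cells came from islets of adult mice that carried all of a nuclear red reporter under the insulin 1 promoter (Ins1-H2b-mCherry), a Cre recombinase in cells that express glucagon (Gcg-cre) and a floxed YFP allele (3 transgenes in every group). The series text describes these triple transgenic pools by sex and also, in a repeated passage, pools of females with a pair of transgenes, and the sample labels were followed for sex. Cells called transdifferentiated were insulin reporter cells with the alpha lineage label (1 male and 1 female library), alpha cells were sorted for YFP (2 male and 1 female library), and beta cells were sorted for mCherry (1 male and 2 female libraries). Each library pooled islets of 10 to 12 animals of 1 sex, cultured overnight at 5.5 mM glucose before sorting. The Cre reporter marks any cell that has expressed the glucagon Cre at some time. Whether replicates came from separate pools is not settled by the labels, since some titles differ only in a letter b, so the p-values measure the spread between these libraries, which may be technical. In sorted pools, fewer cells of a type and less RNA per cell cannot be told apart.

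Potassium channels set the resting potential of islet cells and end each action potential, and so help to gate the calcium entry that drives hormone release. Voltage-gated subunits open on depolarization, calcium-activated channels open when calcium enters, inward rectifiers of the Kcnj3 type open when G proteins are released by receptors such as those for somatostatin, and 2-pore channels leak potassium at rest. Electrically silent subunits form no channel alone but modify the Kcnb family, and accessory subunits change gating or trafficking of the pore.

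Depth differed between the groups. Reads recovered from the steps of the RPKM values summed to 1244194 and 2167282 in the transdifferentiated libraries, 12911555 to 14093813 in the alpha libraries and 14336242 to 21394477 in the beta libraries. A single read on a gene of 2 kb gave 0.402 or 0.231 RPKM in the transdifferentiated libraries, against 0.0234 to 0.0387 RPKM in alpha and beta libraries. In both transdifferentiated libraries 16 of the 43 genes had under 10 reads. The cell labels were checked against marker lists. Summed over 8 beta cell markers, expression was 140400 to 148100 RPKM in transdifferentiated, 2515 to 3211 RPKM in alpha and 187300 to 243500 RPKM in beta libraries, and over 7 alpha cell markers it was 20220 to 20320 RPKM in transdifferentiated, 175800 to 204200 RPKM in alpha and 642 to 1986 RPKM in beta libraries. The 6 delta cell markers, none at 0 in any library, summed to 3014 to 3147 RPKM in transdifferentiated, 1405 to 3232 RPKM in alpha and 362 to 940 RPKM in beta libraries. The 3 PP and epsilon cell markers summed to 8249 to 11440 RPKM in transdifferentiated, 7961 to 13030 RPKM in alpha and 590 to 1274 RPKM in beta libraries. The 10 immune markers summed to 38.8 to 52.1 RPKM in transdifferentiated, 23.7 to 43.1 RPKM in alpha and 121 to 144 RPKM in beta libraries. Of these, Cd68 was at 10.9 and 14.7 RPKM in transdifferentiated, 6.96 to 23.9 RPKM in alpha and 25.2 to 28.6 RPKM in beta libraries. The 6 acinar markers summed to 306 to 879 RPKM in transdifferentiated, 39.6 to 2400.0 RPKM in alpha and 115 to 3389 RPKM in beta libraries, and the 6 duct markers to 361 to 434 RPKM in transdifferentiated, 816 to 1848 RPKM in alpha and 359 to 502 RPKM in beta libraries. Of the duct markers, Spp1 was at 180 and 225 RPKM in transdifferentiated, 667.5 to 1686 RPKM in alpha and 182 to 308 RPKM in beta libraries. Krt7 went the other way, at 69.6 and 75.2 RPKM in transdifferentiated, 29.1 to 32.1 RPKM in alpha and 73.8 to 83.3 RPKM in beta libraries. Epcam was at 96.8 to 131 RPKM over all libraries, and Krt19, Sox9 and Cftr were at most 10.5 RPKM in any library. The 6 endothelial markers summed to 5.30 to 11.4 in transdifferentiated, 4.485 to 6.805 in alpha and 3.08 to 4.97 RPKM in beta libraries. The 6 pericyte and stellate markers summed to 0.871 to 3.01, 1.88 to 2.15 and 0.465 to 0.819 RPKM in that order of groups. The 4 Schwann markers summed to 2.42 to 4.17, 3.82 to 4.23 and 1.91 to 2.39 RPKM. Transdifferentiated replicate 1 had the highest endothelial and the highest pericyte and stellate sum. The part of other cells in the differences below was not tested.

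**Figure D1:**
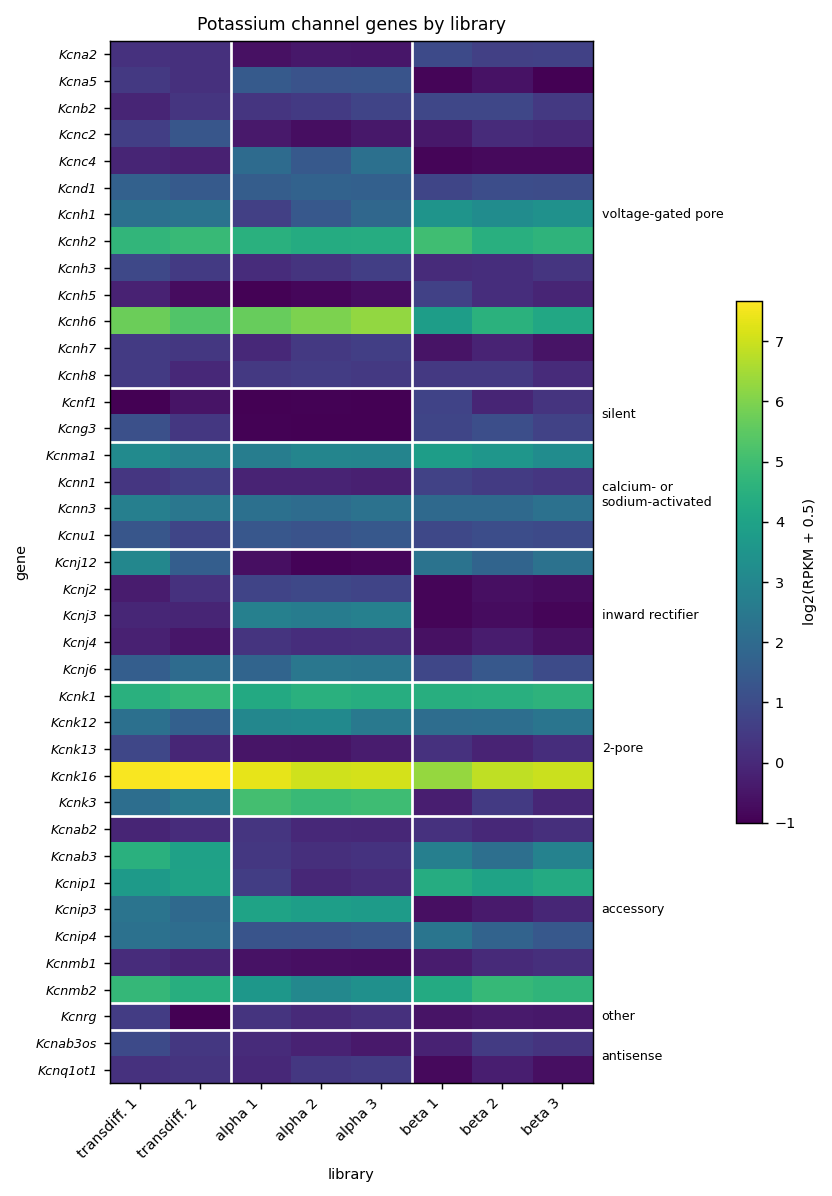
Expression of 39 of the 43 potassium channel genes, one per row and grouped by class, in the 2 transdifferentiated, 3 alpha and 3 beta libraries, as log2(RPKM + 0.5). Kcnk16 is the brightest row in every library, and Kcnk3, Kcnj3 and Kcnip3 are bright in alpha libraries while Kcnip1, Kcnab3 and Kcnj12 are dark there.

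More channel genes separated the native cell types than separated either of them from the transdifferentiated cells, which have fewer libraries and reads. Against beta cells, alpha cells had 15 genes higher and 12 lower, 62.8% of the 43, beside 39.5% of all 15228 genes tested (limma on log2(RPKM + 0.5) with sex as a term, Benjamini-Hochberg adjusted p under 0.05). These were 16.0% higher and 23.5% lower over all genes. Transdifferentiated cells had 10 genes higher and 8 lower than alpha cells, 41.9% beside 27.6% of all genes, of which 20.6% were higher and 7.01% lower. Against beta cells they had 8 genes higher and 0 lower, 18.6% beside 10.9% of all genes, of which 8.15% were higher and 2.72% lower. Among the 8 were Kcnk3, Kcnip3, Kcnab3, Kcnh6, Kcna5, Kcnk16 and Kcnj3. At an unadjusted p under 0.05 the comparison with beta cells held 23 of the 43 genes. No share over all genes at that level is given beside it, so that count describes these genes only. The median log2 fold change of the 43 genes was 0.17 against alpha and 0.18 against beta cells for transdifferentiated cells, beside 0.15 and 0.09 over all genes, and -0.04 for alpha against beta cells, beside -0.01. The 3 comparisons share libraries and are not independent. Libraries of the groups did not overlap for 25 of the 43 genes between transdifferentiated and beta cells, for 28 between transdifferentiated and alpha cells and for 34 between alpha and beta cells (58.1%, 65.1% and 79.1%, beside 44.8%, 50.9% and 58.3% of all genes).

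The count of transdifferentiated against beta cells moved most when libraries were left out. It was 3 without transdifferentiated replicate 1, 3 without alpha replicate 2, 4 without alpha replicate 3, 3 without beta replicate 1, 5 without beta replicate 2 and 2 without beta replicate 3, while limma voom on the recovered reads called 7, all among the 8, beside 5.25% of all genes. Voom called 14 genes against alpha cells (15.5% of all genes) and 30 between alpha and beta cells (50.7% of all genes). The count of alpha against beta cells was 17 without alpha replicate 3. The split into higher and lower depended on the scaling: against beta cells, 8 higher and 0 lower became 6 and 2 with median-ratio scaling and 7 and 3 with quantile normalization, and against alpha cells 10 and 8 became 7 and 9, and 10 and 9. Those scalings moved the median of all genes by -0.14 and -0.12 against beta cells and by -0.21 and -0.19 against alpha cells on the log2 scale, and voom moved it by 0.11 in both.

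The letter b of the titles marks alpha replicates 2 and 3 and beta replicates 2 and 3, so it is absent from both transdifferentiated libraries. Alpha and beta libraries with the letter had the higher acinar sums (611 and 2400.0 RPKM in alpha, 1561 and 3389 RPKM in beta libraries), against 39.6 RPKM in alpha and 115 RPKM in beta libraries without it. With the letter as a term besides sex, the 3 counts were 10 against beta cells, 13 against alpha cells and 26 between alpha and beta cells. Without the letter, alpha and beta cells have 1 library each, of different sex, so no test within it was made. The genes called in each comparison had the same direction in male and in female libraries, which is a description, since those libraries also made the calls. In the fit of group by sex, 0 of the 43 genes differed between sexes in their alpha to beta difference, 0 at an unadjusted p under 0.05 with limma, and over all genes limma called 0, with 288 at that level.

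**Figure D2:**
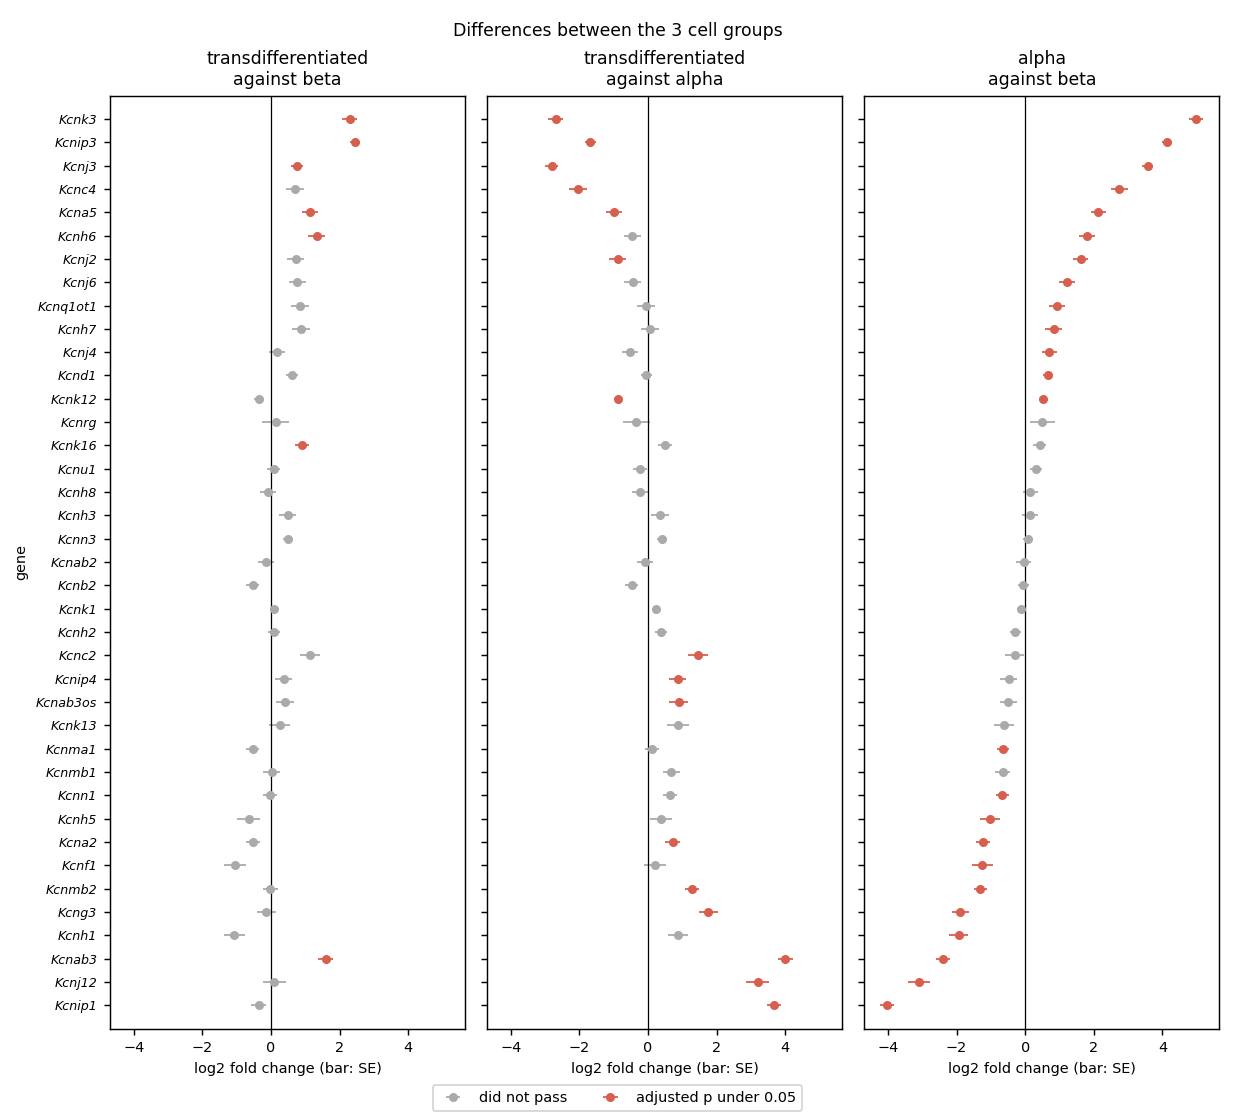
Log2 fold change of each of 39 of the 43 genes (points, with the standard error as bars) for transdifferentiated against beta, transdifferentiated against alpha and alpha against beta cells, ordered by the last; red points have an adjusted p under 0.05. In the deposited scaling the red points of the first panel all lie right of 0 (over all 43 genes, 6 right and 2 left with median-ratio scaling), and the other panels have red points on both sides.

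By the mean, the transdifferentiated cells lay between alpha and beta cells for 24 of the 43 genes, above both for 15 and below both for 4, which is 55.8%, 34.9% and 9.3% beside 44.0%, 41.2% and 14.8% of all genes tested. Both libraries were above all 6 others for genes such as Kcnab3, Kcnk16, Kcnc2 and Kcnn3, and below all 6 for genes such as Kcnb2. Over all genes tested, 12.8% were above all 6 in this way and 3.05% below, so the pattern is not particular to these genes. Among genes called between alpha and beta cells with a fold of at least 2, position was measured on linear RPKM, with 0% at the beta mean and 100% at the alpha mean. The 10 genes higher in alpha cells lay at 6.34% to 115%, with a median of 29.9%. The 10 genes lower in alpha cells lay at -264% to 88.1%, with a median of 30.2%, where Kcnab3 (-264%), Kcnj12 (-29.9%) and Kcnmb2 (-0.48%) were above the beta mean.

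By deposited RPKM, the 2-pore channels included the highest gene. Kcnk16, which encodes the leak channel TALK1 of islets, ranked 1 of the 43 genes in every group on that scale, and Kcnk3, which encodes the acid-sensitive leak channel TASK1, had the largest alpha to beta difference of the class. Of 5 genes, 2 were higher and 0 lower in transdifferentiated than in beta cells, 0 were higher and 2 lower than in alpha cells, with 2 higher and 0 lower in alpha cells when set against beta cells. Kcnk16 (chromosome 14, 20261376 to 20269199, minus strand) was at 191 and 203 RPKM in transdifferentiated libraries, at 161, 131 and 137 RPKM in alpha libraries and at 77.6, 113 and 124 RPKM in beta libraries. Both transdifferentiated libraries were above all 6 others, and the alpha libraries were above the beta libraries. Its means were 197 ± 8.51 RPKM (SD, n = 2), 143 ± 15.9 and 105 ± 24.3 RPKM (SD, n = 3 each) in transdifferentiated, alpha and beta cells. Kcnk16 rose by 0.91 on the log2 scale against beta cells (SE 0.19, adjusted p = 0.0323). It did not pass against alpha cells (0.49, SE 0.19, adjusted p = 0.102), nor did alpha against beta cells (0.42, SE 0.18, adjusted p = 0.103). The call against beta cells was lost when any 1 of the 8 libraries was left out, with adjusted p from 0.0501 without beta replicate 1 to 0.114 without transdifferentiated replicate 2, and with median-ratio scaling (adjusted p = 0.0601).

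Kcnk3 (chromosome 5, 30588170 to 30625271, plus strand) was at 3.84 and 5.22 RPKM in transdifferentiated libraries, at 32.9, 29.1 and 31.1 RPKM in alpha libraries and at 0.337, 0.881 and 0.456 RPKM in beta libraries. The 3 groups did not overlap, and the transdifferentiated cells were low beside alpha cells and high beside beta cells, at 13.0% of the way from the beta to the alpha mean. The transdifferentiated values rested on 19 and 45 reads. The log2 fold change was 2.30 against beta cells (SE 0.22, adjusted p = 0.00414) and -2.69 against alpha cells (SE 0.22, adjusted p = 0.000356), and alpha cells were 4.99 higher than beta cells (SE 0.21, adjusted p = 8.68e-06). Each of these was called in all 17 alternatives.

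The other 2-pore genes were Kcnk1, Kcnk12 and Kcnk13. Kcnk1 lay at 18.6 to 26.1 RPKM over all libraries and passed in no comparison. Kcnk12 was at 2.62 to 4.15 RPKM in transdifferentiated, 5.24 to 8.12 RPKM in alpha and 3.74 to 4.72 RPKM in beta libraries, and fell by 0.88 on the log2 scale against alpha cells (adjusted p = 0.00344, and adjusted p = 0.0947 with voom, on 10 and 11 transdifferentiated reads). Kcnk12 was also called higher in alpha than in beta cells, which was lost without alpha replicate 3 (adjusted p = 0.0548) and beta replicate 3 (0.111). Kcnk13 stayed at 0.192 to 1.29 RPKM and passed in no comparison. Summed over the 43 genes, expression was 449 and 429 RPKM in transdifferentiated libraries, 386, 366 and 393 RPKM in alpha libraries and 271, 304 and 312 RPKM in beta libraries. Kcnk16 made up 42.6% and 47.3% of this in transdifferentiated libraries, 34.9% to 41.7% in alpha libraries and 28.6% to 39.8% in beta libraries. Without it the sums were 258 and 226 RPKM in transdifferentiated libraries, 225, 235 and 256 RPKM in alpha libraries and 193, 191 and 188 RPKM in beta libraries. On that sum the transdifferentiated and alpha libraries overlapped, and both were above the beta libraries. RPKM sums depend on the gene lengths the authors used, which for Kcnk16 was 879 bases by its steps, against 2377 annotated exonic bases. At the annotated length the Kcnk16 means would be 72.9 RPKM in transdifferentiated, 52.9 RPKM in alpha and 38.8 RPKM in beta cells, and in alpha cells Kcnh6 (62.7 RPKM) would rank above it.

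**Figure D3:**
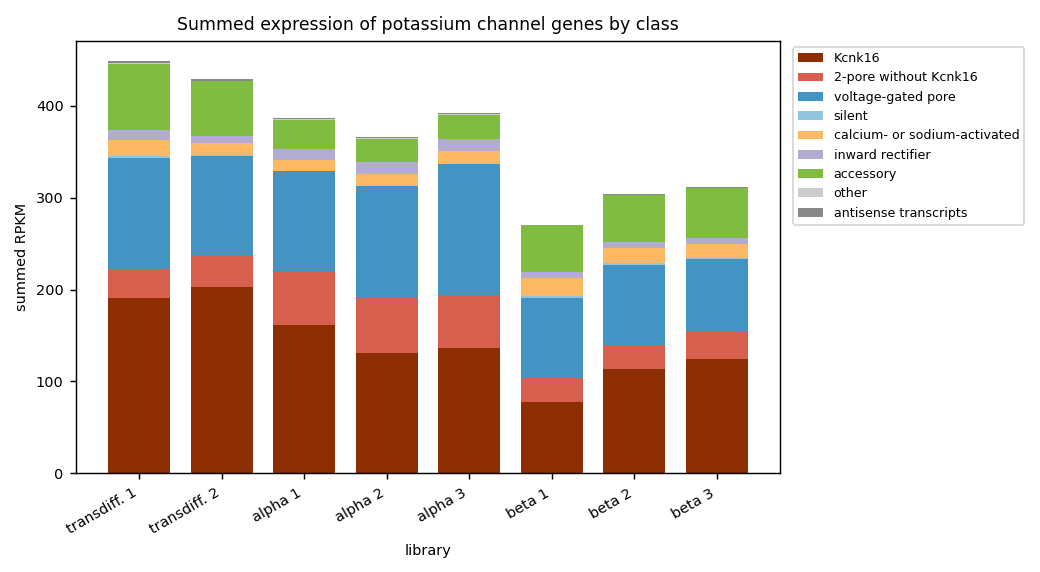
Summed RPKM of the potassium channel genes in each library, stacked by class, with Kcnk16 apart from the other 2-pore genes. The transdifferentiated libraries reach 449 and 429 RPKM, the alpha libraries 366 to 393 RPKM and the beta libraries 271 to 312 RPKM, and the Kcnk16 segment is the largest single gene in each.

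Among voltage-gated pore subunits, the ERG channel gene Kcnh6 was the most expressed in alpha and transdifferentiated cells. Of 17 genes, 3 were higher and 0 lower in transdifferentiated than in beta cells, 3 were higher and 3 lower than in alpha cells, with 7 higher and 4 lower in alpha cells when set against beta cells. Kcnh6 (chromosome 11, 106008124 to 106034549, plus strand) was at 51.9 and 39.1 RPKM in transdifferentiated libraries, at 50.3, 62.0 and 75.7 RPKM in alpha libraries and at 13.7, 22.5 and 17.7 RPKM in beta libraries. Transdifferentiated and alpha libraries overlapped, and all of them were above the beta libraries. Kcnh6 rose by 1.34 on the log2 scale in transdifferentiated against beta cells (SE 0.25, adjusted p = 0.0248) and was 1.80 higher in alpha than in beta cells (SE 0.23, adjusted p = 0.00119), while transdifferentiated against alpha cells gave -0.46 (SE 0.25, adjusted p = 0.219). The call against beta cells was lost without transdifferentiated replicate 1 (adjusted p = 0.092), alpha replicate 2 (0.0542), beta replicate 1 (0.06) and beta replicate 3 (0.0952).

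Kcnc4, which encodes a fast inactivating channel, was high in alpha cells alone. It was at 0.438 and 0.377 RPKM in transdifferentiated libraries, at 3.61, 2.15 and 4.08 RPKM in alpha libraries and at 0.0439, 0.0765 and 0.0761 RPKM in beta libraries. No groups overlapped, and the transdifferentiated values stood on 2 and 3 reads. The transdifferentiated cells fell by 2.04 on the log2 scale against alpha cells (SE 0.27, adjusted p = 0.00233) and were 0.70 from beta cells (SE 0.27, adjusted p = 0.134), and alpha against beta cells gave 2.75 (SE 0.25, adjusted p = 0.000247). Kcnc4 entered the set through its alpha libraries only, so a difference from that group was built into the choice.

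Kcnh1 was highest in beta cells, and Kcnc2 was highest in the transdifferentiated cells. Kcnh1, which encodes the EAG channel, was at 4.05 and 4.41 RPKM in transdifferentiated libraries, at 1.05, 2.14 and 3.23 RPKM in alpha libraries and at 10.8, 8.72 and 9.96 RPKM in beta libraries. No groups overlapped, with the transdifferentiated libraries in the middle. Alpha cells were 1.94 lower than beta cells (SE 0.28, adjusted p = 0.00191), while the transdifferentiated cells did not pass on either side (-1.06 against beta, SE 0.30, adjusted p = 0.0657; 0.87 against alpha, SE 0.30, adjusted p = 0.0715). The difference from beta cells passed with median-ratio scaling (adjusted p = 0.0413), with quantile normalization (0.0414) and without alpha replicate 1 (0.0302), and that from alpha cells passed without alpha replicate 3 (0.0456).

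Kcnc2, another gene of a fast channel, was at 1.04 and 2.01 RPKM in transdifferentiated libraries, at 0.262, 0.120 and 0.240 RPKM in alpha libraries and at 0.234, 0.535 and 0.484 RPKM in beta libraries. Both transdifferentiated libraries were above all 6 others, on 8 and 27 reads. Kcnc2 rose by 1.45 against alpha cells (SE 0.30, adjusted p = 0.0123, and adjusted p = 0.0559 without alpha replicate 3) and was 1.14 from beta cells (SE 0.30, adjusted p = 0.0535, and 0.0477 with a pseudocount of 1 and 0.0408 without the sex term).

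Kcnb2, a delayed rectifier gene, was at 0.424 and 0.760 RPKM in transdifferentiated libraries, below the alpha libraries at 0.776 to 1.20 RPKM and the beta libraries at 0.851 to 1.31 RPKM, and did not pass (-0.48 against alpha, adjusted p = 0.0895, and 0.0421 with median-ratio scaling; -0.54 against beta, adjusted p = 0.0978). Kcnh2, the second ERG gene, was at 25.9 and 28.4 RPKM in transdifferentiated libraries, at 22.4, 19.5 and 20.1 RPKM in alpha libraries and at 31.8, 21.7 and 24.3 RPKM in beta libraries. The transdifferentiated libraries were inside the beta range and above the alpha libraries, and the largest fitted difference was 0.37 against alpha cells (SE 0.16, adjusted p = 0.135).

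Another 7 voltage-gated genes, Kcna2, Kcna5, Kcnd1, Kcnh3, Kcnh5, Kcnh7 and Kcnh8, were under 3 RPKM in every library. Kcna5, a delayed rectifier gene singled out after its values were seen, was at 0.842 and 0.645 RPKM in transdifferentiated libraries, at 2.22, 1.85 and 1.86 RPKM in alpha libraries and at 0.0374, 0.163 and 0 RPKM in beta libraries. No groups overlapped, and the transdifferentiated values stood on 3 and 4 reads. Kcna5 rose by 1.14 on the log2 scale against beta cells (adjusted p = 0.0291, called in 10 of 17 alternatives) and fell by 0.99 against alpha cells (adjusted p = 0.0193, called in 11 of 17). The call against beta cells was lost without transdifferentiated replicate 1 (adjusted p = 0.0795), alpha replicate 2 (0.0612), alpha replicate 3 (0.0569), beta replicate 1 (0.0836) and beta replicate 3 (0.124), and that against alpha cells without transdifferentiated replicate 2 (0.0588), alpha replicate 1 (0.0537) and alpha replicate 3 (0.0663). Kcna2 rose by 0.71 against alpha cells (adjusted p = 0.0466), which was lost when any 1 library was left out (adjusted p = 0.065 to 0.135), and Kcnh3 and Kcnh8 passed in no comparison. Between alpha and beta cells, Kcna5 (2.13, adjusted p = 0.000376) and Kcnd1 (0.67, adjusted p = 0.013, lost without alpha replicate 3 at 0.106 and beta replicate 3 at 0.0769) were higher in alpha cells. Kcnh7 was also higher there (0.83, adjusted p = 0.0323, lost without alpha replicate 2, alpha replicate 3, beta replicate 1 and beta replicate 3, at 0.0864 to 0.189). Kcna2 was lower in alpha cells (-1.24, adjusted p = 0.00307), as was Kcnh5 (-1.03, adjusted p = 0.033, lost without any 1 alpha or beta library, at 0.0608 to 0.118).

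The electrically silent subunit genes were beta cell genes that alpha cells nearly lacked. Kcng3 was near the beta level in the transdifferentiated cells, and Kcnf1 was near the alpha level. Of the 2 genes, 0 passed between transdifferentiated and beta cells, 1 was higher in transdifferentiated than in alpha cells, with 2 lower in alpha cells when set against beta cells. Kcng3 was at 1.68 and 0.825 RPKM (7 and 6 reads) in transdifferentiated libraries, at 0.0231, 0 and 0 RPKM (1, 0 and 0 reads) in alpha libraries and at 1.25, 1.64 and 1.14 RPKM (78, 118 and 55 reads) in beta libraries. Both transdifferentiated libraries were above all alpha libraries and spanned the beta range. The fitted log2 fold change was 1.76 against alpha cells (SE 0.28, adjusted p = 0.00443) and -0.13 against beta cells (SE 0.28, adjusted p = 0.783), and -1.89 in alpha against beta cells (SE 0.25, adjusted p = 0.00139), sizes that depend on the pseudocount since alpha cells had 1 read.

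Kcnf1 was at 0 and 0.193 RPKM (0 and 2 reads) in transdifferentiated libraries, at 0, 0.0155 and 0 RPKM in alpha libraries and at 1.16, 0.429 and 0.728 RPKM in beta libraries. Transdifferentiated and alpha libraries overlapped at or near 0, and all were below the beta libraries. Alpha cells were lower than beta cells (fitted log2 fold change -1.25, SE 0.30, adjusted p = 0.0158), a call lost without alpha replicate 3 (adjusted p = 0.1) and without beta replicate 3 (0.103). Transdifferentiated cells did not pass against beta cells (-1.05, SE 0.32, adjusted p = 0.0798). Kcnf1 entered the set through its beta libraries only, as did Kcnh5, and Kcnj3 and Kcnj4 entered through their alpha libraries only, so that a difference from that group was built into the choice.

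In the calcium- or sodium-activated class of 4 genes, 0 were called in transdifferentiated against alpha and 0 against beta cells. Voom also called 0 in both, and with limma 2 in each had an unadjusted p under 0.05. No share over all genes at that level is given beside those 2. In alpha against beta cells 0 were higher and 2 lower. Kcnma1, the pore of the large-conductance BK channel, was at 8.27 and 6.52 RPKM in transdifferentiated libraries, at 5.90, 7.17 and 6.94 RPKM in alpha libraries and at 13.7, 11.3 and 8.71 RPKM in beta libraries. The transdifferentiated and alpha libraries overlapped, and both lay below the beta libraries. Alpha cells were 0.65 lower than beta cells on the log2 scale (SE 0.18, adjusted p = 0.0286), and transdifferentiated against beta cells gave -0.54 (SE 0.20, adjusted p = 0.122). The alpha to beta difference missed the threshold without alpha replicate 1 (adjusted p = 0.0694), alpha replicate 3 (0.142), beta replicate 1 (0.0708) and beta replicate 2 (0.0624).

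Small-conductance channels, which follow cell calcium, were encoded by Kcnn1 and Kcnn3. Kcnn3 was at 6.15 and 4.86 RPKM in transdifferentiated libraries, at 4.12, 3.73 and 4.32 RPKM in alpha libraries and at 3.42, 3.42 and 4.18 RPKM in beta libraries. Both transdifferentiated libraries were above all 6 others, without passing (0.41 against alpha, SE 0.15, adjusted p = 0.0786; 0.50 against beta, SE 0.15, adjusted p = 0.0721). Kcnn1 was at 0.793 and 1.02 RPKM in transdifferentiated libraries, at 0.420, 0.404 and 0.350 RPKM in alpha libraries and at 1.15, 0.934 and 0.791 RPKM in beta libraries. The transdifferentiated libraries fell in the beta range, and the alpha libraries were below both. Transdifferentiated cells did not pass against alpha cells (0.64, SE 0.21, adjusted p = 0.0632, and 0.0434 without the sex term). Alpha cells were 0.66 lower than beta cells (SE 0.20, adjusted p = 0.033), which was lost without alpha replicate 2 (adjusted p = 0.0644), alpha replicate 3 (0.204), beta replicate 1 (0.095), beta replicate 2 (0.0749) and beta replicate 3 (0.103). Kcnu1, a channel gene known from sperm that is in this class by its symbol alone, stayed at 1.26 to 2.09 RPKM and passed in no comparison.

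Each of the 5 inward rectifier genes passed in alpha against beta cells, with 4 up and 1 down in alpha cells, beside 39.5% of all genes. Of these, Kcnj3 and Kcnj4 entered the set through their alpha libraries only, so a difference from alpha cells was built into the choice. Transdifferentiated cells had 1 higher and 0 lower than beta cells, and 1 higher and 2 lower than alpha cells. Kcnj3 (chromosome 2, 55435970 to 55598145, plus strand), a subunit of the G protein-gated channel, was at 0.462 and 0.442 RPKM in transdifferentiated libraries, at 6.43, 5.68 and 6.35 RPKM in alpha libraries and at 0.0411, 0.117 and 0.0401 RPKM in beta libraries. No groups overlapped, and the transdifferentiated cells were at 6.34% of the way from the beta to the alpha mean, on 3 and 5 reads. Kcnj3 fell by 2.81 on the log2 scale against alpha cells (SE 0.18, adjusted p = 0.000136) and was 3.57 higher in alpha than in beta cells (SE 0.17, adjusted p = 1.49e-05), both called in all 17 alternatives. Against beta cells it rose by 0.76 (SE 0.18, adjusted p = 0.0423), a call lost when any 1 library was left out, with adjusted p from 0.0579 without transdifferentiated replicate 2 to 0.149 without beta replicate 3. A noncoding gene on the opposite strand covers 31.1% of the exonic bases of Kcnj3 and was itself at 0 to 0.609 RPKM.

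Kcnj6, which encodes a partner of the Kcnj3 product, was at 2.49 and 3.58 RPKM in transdifferentiated libraries, at 2.99, 4.92 and 4.73 RPKM in alpha libraries and at 1.31, 2.10 and 1.48 RPKM in beta libraries. Transdifferentiated and alpha libraries overlapped, and all were above the beta libraries. Alpha cells were 1.23 higher than beta cells (SE 0.23, adjusted p = 0.00577), and transdifferentiated cells passed against neither (-0.45 against alpha, SE 0.25, adjusted p = 0.217, and adjusted p = 0.0445 with quantile normalization; 0.78 against beta, SE 0.25, adjusted p = 0.0863, and adjusted p = 0.0244 with the letter b as a term).

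Kcnj12, which encodes a strong inward rectifier, had the opposite pattern to Kcnj3. It was at 7.60 and 2.52 RPKM (26 and 15 reads) in transdifferentiated libraries, at 0.141, 0.0271 and 0.0516 RPKM (5, 1 and 2 reads) in alpha libraries and at 4.42, 2.94 and 4.36 RPKM in beta libraries. The transdifferentiated libraries lay on either side of the beta libraries and far above the alpha libraries. The log2 fold change was 3.20 against alpha cells (SE 0.34, adjusted p = 0.000938) and 0.10 against beta cells (SE 0.34, adjusted p = 0.87), and -3.10 in alpha against beta cells (SE 0.31, adjusted p = 0.000396). Its relatives Kcnj2 and Kcnj4 were low, at most 1.35 RPKM in any library, and both were called higher in alpha against beta cells (1.61, adjusted p = 0.00172, and 0.70, adjusted p = 0.0424, lost for Kcnj4 when any 1 alpha or beta library was left out, adjusted p = 0.0631 to 0.218). Kcnj2 fell by 0.89 in transdifferentiated against alpha cells on 2 and 8 reads (adjusted p = 0.0356, called in 5 of 17 alternatives). That call was lost without any 1 library other than transdifferentiated replicate 2, with adjusted p from 0.0502 without beta replicate 1 to 0.165 without transdifferentiated replicate 1.

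Accessory subunits included Kcnab3 and Kcnip1, which were far above their alpha levels in the transdifferentiated cells. Of 7 genes, 2 were higher and 0 lower in transdifferentiated than in beta cells, 4 were higher and 1 lower than in alpha cells, with 1 higher and 3 lower in alpha cells when set against beta cells. Kcnab3 (chromosome 11, 69326258 to 69333042, plus strand), which encodes a beta subunit of voltage-gated channels, was at 22.2 and 15.1 RPKM in transdifferentiated libraries, at 0.811, 0.624 and 0.718 RPKM in alpha libraries and at 6.21, 3.98 and 6.74 RPKM in beta libraries. No groups overlapped, and the transdifferentiated libraries were the highest. The means were 18.6 ± 4.96 RPKM (SD, n = 2) in transdifferentiated, 0.718 ± 0.0935 RPKM in alpha and 5.64 ± 1.47 RPKM in beta cells (SD, n = 3 each). Kcnab3 rose by 4.0 on the log2 scale against alpha cells (SE 0.22, adjusted p = 7.61e-05) and by 1.60 against beta cells (SE 0.22, adjusted p = 0.0113), and was 2.40 lower in alpha than in beta cells (SE 0.20, adjusted p = 0.000176). The call against beta cells was lost in 1 of 17 alternatives, without beta replicate 3 (adjusted p = 0.0583). It was the only one of the 43 genes called in the same direction against both native types, beside 2.21% of all genes called higher and 0.558% called lower than both.

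Of the KChIP genes, whose calcium-binding products join channels of the Kcnd family, Kcnip1 was lower and Kcnip3 higher in alpha cells when set against beta cells, while Kcnip4 did not pass (-0.49, adjusted p = 0.139). Kcnip1 was at 12.8 and 15.6 RPKM in transdifferentiated libraries, at 0.974, 0.469 and 0.584 RPKM in alpha libraries and at 20.1, 16 and 19.1 RPKM in beta libraries. The transdifferentiated libraries were just below the beta libraries and far above the alpha libraries. Kcnip1 rose by 3.67 against alpha cells (SE 0.21, adjusted p = 9.01e-05) and was -0.36 from beta cells (SE 0.21, adjusted p = 0.294), with -4.03 in alpha against beta cells (SE 0.20, adjusted p = 1.77e-05). Kcnip3, whose product is also known as a transcriptional repressor, was at 4.53 and 3.38 RPKM in transdifferentiated libraries, at 15.8, 14.0 and 13.1 RPKM in alpha libraries and at 0.136, 0.277 and 0.452 RPKM in beta libraries. No groups overlapped, with the transdifferentiated libraries at 26.2% of the way from the beta to the alpha mean. Kcnip3 rose by 2.45 against beta cells (SE 0.16, adjusted p = 0.00149) and fell by 1.68 against alpha cells (SE 0.16, adjusted p = 0.000568), with 4.13 in alpha against beta cells (SE 0.14, adjusted p = 5.75e-06), each called in all 17 alternatives.

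Kcnmb2, whose product inactivates BK channels, was at 27.0 and 20.9 RPKM in transdifferentiated libraries, at 11.4, 7.83 and 9.71 RPKM in alpha libraries and at 19.3, 27.4 and 24.9 RPKM in beta libraries. The transdifferentiated libraries lay within the beta range, above the alpha libraries. Kcnmb2 rose by 1.29 against alpha cells (SE 0.20, adjusted p = 0.00474) and was -0.01 from beta cells (SE 0.20, adjusted p = 0.975), with -1.31 in alpha against beta cells (SE 0.19, adjusted p = 0.00199). The remaining accessory genes were Kcnip4, Kcnab2 and Kcnmb1. Kcnip4, at 1.83 to 4.71 RPKM, rose by 0.86 against alpha cells (adjusted p = 0.044, lost without transdifferentiated replicate 1 at 0.25, any 1 alpha replicate at 0.0867 to 0.159 and beta replicate 2 at 0.0682), and Kcnab2 and Kcnmb1, at most 0.763 RPKM in any library, passed in no comparison.

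**Figure D4:**
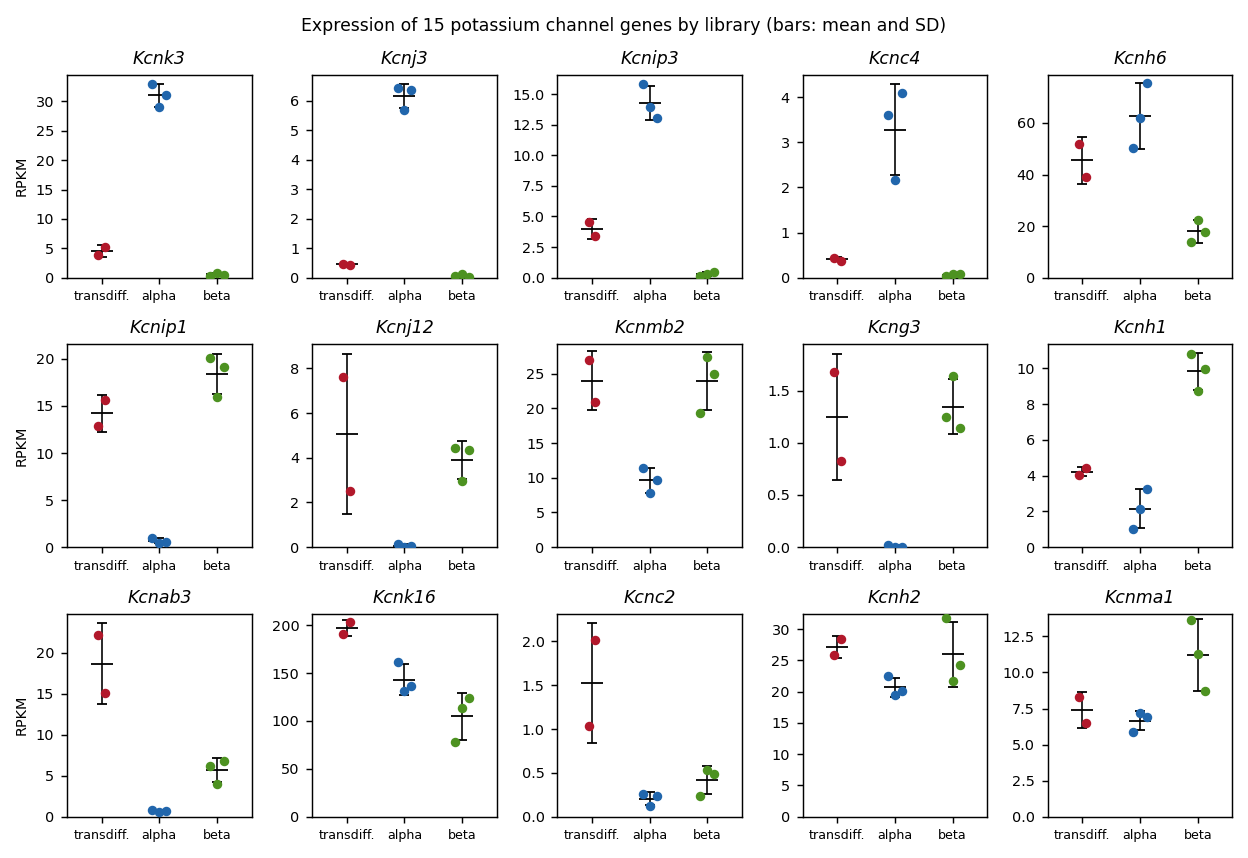
RPKM of 15 potassium channel genes in each library (points), with the mean and SD (bars), for transdifferentiated, alpha and beta cells. Kcnk3, Kcnj3 and Kcnip3 are highest in alpha cells with the transdifferentiated libraries above the beta libraries, and Kcnip1 and Kcnmb2 are near the beta level. Kcnab3, Kcnk16 and Kcnc2 have both transdifferentiated libraries above all others, as did 12.8% of all genes tested.

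Kcnrg and the antisense transcripts stayed low. Kcnrg, which encodes a protein with the tetramerization domain of potassium channels, was at 0.939 and 0 RPKM (1 and 0 reads) in transdifferentiated libraries, at 0.724, 0.522 and 0.663 RPKM in alpha libraries and at 0.188, 0.273 and 0.244 RPKM in beta libraries, and passed in no comparison. Its transdifferentiated libraries spanned both other groups. Kcnab3os, which runs antisense to Kcnab3, was at 1.42 and 0.815 RPKM (1 read each) in transdifferentiated libraries, at 0.547, 0.395 and 0.251 RPKM in alpha libraries and at 0.379, 0.908 and 0.739 RPKM in beta libraries. It was called against alpha cells (0.89, SE 0.27, adjusted p = 0.048) on those 2 reads and in 3 of 16 alternatives. Leaving out any 1 library other than beta replicate 2 ended it, with adjusted p from 0.0585 without beta replicate 1 to 0.19 without transdifferentiated replicate 1. Kcnab3os shares 26.0% of its exonic bases with Kcnab3, and without strand, reads on the shared bases cannot be assigned to either gene. Kcnq1ot1, the long RNA antisense to Kcnq1, was at 0.676 and 0.727 RPKM in transdifferentiated libraries, at 0.502 to 0.925 RPKM in alpha libraries and at 0.0775 to 0.336 RPKM in beta libraries, and was 0.93 higher in alpha cells against beta cells (adjusted p = 0.0232), lost without alpha replicate 2 (0.0658), alpha replicate 3 (0.142), beta replicate 1 (0.0604) and beta replicate 3 (0.0988).

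Of the potassium channel genes often studied in islets, 6 did not reach the level of the rule. Kcnd2 and Kcnd3 were at most 0.244 RPKM in any library, and Kcnq1 at most 0.409 and Kcns3 at most 0.302 RPKM. Kcnn4 reached 1.10 RPKM in transdifferentiated replicate 1 and 0.361 RPKM in replicate 2, against at most 0.0151 RPKM in alpha and 0.218 RPKM in beta libraries, and Kcnj5, a partner of the Kcnj3 product, was at 0 and 0.616 RPKM in transdifferentiated libraries, at most 0.0172 RPKM in alpha libraries and 0.109 to 0.167 RPKM in beta libraries.

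Promoter sequences from RefSeq (GRCm38.p6, 250 bases before to 50 bases after the listed start) were available for 32 of the 43 genes and are shown for 4 that stand for the main patterns. Kcnk16 had the highest deposited RPKM in every group, Kcnj12 was nearly missing from alpha cells, Kcnh6 was shared by alpha and transdifferentiated cells, and Kcnj3 was high in alpha cells alone. Each is printed 5′ to 3′ on the strand of its gene, with matches to 5 short motifs in capitals. The motifs, searched on both strands, were a short CREB motif (TGACG), a forkhead motif (TGTTTAC), a homeodomain core (TAATTA), a short MAF motif (TGCTGA) and an E-box bound by NeuroD (CAGATG).
Kcnk16, chr14:20269220-20269519, minus strand: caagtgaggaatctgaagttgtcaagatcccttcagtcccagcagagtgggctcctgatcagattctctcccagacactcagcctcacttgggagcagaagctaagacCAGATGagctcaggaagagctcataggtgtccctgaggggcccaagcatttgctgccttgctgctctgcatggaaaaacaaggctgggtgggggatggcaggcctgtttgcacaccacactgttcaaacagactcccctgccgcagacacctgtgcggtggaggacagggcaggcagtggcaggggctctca
Kcnj12, chr11:61065554-61065853, plus strand: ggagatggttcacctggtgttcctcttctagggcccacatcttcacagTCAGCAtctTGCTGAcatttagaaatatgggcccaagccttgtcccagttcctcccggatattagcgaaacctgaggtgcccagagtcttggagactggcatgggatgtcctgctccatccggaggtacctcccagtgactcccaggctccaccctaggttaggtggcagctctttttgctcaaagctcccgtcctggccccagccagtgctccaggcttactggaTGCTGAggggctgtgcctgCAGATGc
Kcnh6, chr11:106007898-106008197, plus strand: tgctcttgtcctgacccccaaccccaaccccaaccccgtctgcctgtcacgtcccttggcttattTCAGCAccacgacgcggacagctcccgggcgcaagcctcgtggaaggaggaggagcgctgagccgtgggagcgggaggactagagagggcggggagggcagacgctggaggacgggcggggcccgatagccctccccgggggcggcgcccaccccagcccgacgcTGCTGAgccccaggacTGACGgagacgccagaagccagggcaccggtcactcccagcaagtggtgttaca
Kcnj3, chr2:55435720-55436019, plus strand: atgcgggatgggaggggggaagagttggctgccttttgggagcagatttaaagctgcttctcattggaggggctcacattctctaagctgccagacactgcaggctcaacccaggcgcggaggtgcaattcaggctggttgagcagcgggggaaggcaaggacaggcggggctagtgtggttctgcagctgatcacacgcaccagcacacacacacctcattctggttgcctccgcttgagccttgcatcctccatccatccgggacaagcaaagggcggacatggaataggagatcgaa
The Kcnk16 window held 1 E-box, the Kcnj12 window 3 MAF motifs and 1 E-box, the Kcnh6 window 2 MAF motifs and 1 CREB motif, and the Kcnj3 window no match, and no matches overlapped. The RefSeq start of Kcnj12 lies inside the span given for that gene in the annotation used for coordinates. Over the 32 promoters, 11 held the CREB motif (34.4%, beside 21.0% of 27025 promoters of that length), 6 the MAF motif (18.8%, beside 19.1%) and 7 the E-box (21.9%, beside 17.2%). The forkhead motif and the homeodomain core were in 0 of the 32 (beside 3.55% and 5.31%). The median GC content was 61.1% in the 32 promoters and 52.7% in all, and a match describes letters in this window, not binding.

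Genes without a Kcn symbol that act on potassium were taken from 4 lists, with 29 genes tested. Of 7 tested accessory proteins of potassium channels, 1 was higher and 1 lower in transdifferentiated than in beta cells, 2 were higher and 1 lower than in alpha cells, with 2 higher and 2 lower in alpha cells when set against beta cells. Dpp10, a partner of the Kcnd family, was at 0.815 and 0.614 RPKM in transdifferentiated libraries, at 4.91, 4.09 and 3.80 RPKM in alpha libraries and at 0.224, 0.201 and 0.190 RPKM in beta libraries. Its log2 fold change was 0.76 against beta cells (adjusted p = 0.0469, lost when any 1 library was left out, at 0.0618 to 0.18) and -1.95 against alpha cells (adjusted p = 0.000631). Vapb, a membrane contact protein that binds the Kcnb channels, was at 29.4 and 28.3 RPKM in transdifferentiated libraries, at 16.9, 17.9 and 15.3 RPKM in alpha libraries and at 46.0, 40.0 and 40.2 RPKM in beta libraries. Both genes thus had transdifferentiated libraries between the alpha and beta libraries, and Vapb fell by 0.54 against beta cells (adjusted p = 0.026, lost without any 1 transdifferentiated or beta library, at 0.0594 to 0.0737) and rose by 0.78 against alpha cells (adjusted p = 0.00248). Of the other calls in this list, Lingo1 against alpha cells was lost without any 1 library other than alpha replicate 1 (0.0565 to 0.101), and Vapa in alpha against beta cells without alpha replicate 3 (0.112) or beta replicate 3 (0.116).

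Sodium-potassium pump genes, which maintain the gradient that potassium channels use, were often lower in alpha cells. Of 8 tested subunits and FXYD regulators, 1 was higher and 0 lower in transdifferentiated than in beta cells, 4 were higher and 0 lower than in alpha cells, with 0 higher and 5 lower in alpha cells when set against beta cells. Among these calls, that of Fxyd3 against beta cells was lost without transdifferentiated replicate 1 or any 1 beta library (adjusted p = 0.0637 to 0.0955). Against alpha cells, Fxyd5 was lost without transdifferentiated replicate 1 (0.107) or 2 (0.0734), alpha replicate 1 (0.0645) or alpha replicate 3 (0.107), and Fxyd6 without transdifferentiated replicate 1 (0.145) or 2 (0.067), alpha replicate 1 (0.0548) or alpha replicate 2 (0.0606). Between alpha and beta cells, Atp1b3 was lost without any 1 alpha or beta library (0.055 to 0.209), and Fxyd5 without alpha replicate 1 (0.0799), alpha replicate 3 (0.269), beta replicate 1 (0.0823) or beta replicate 2 (0.069). The median log2 fold changes were 0.03, 0.77 and -0.40, beside 0.09, 0.15 and -0.01 over all genes. Atp1b1, the main beta subunit, was at 98.3 and 88.0 RPKM in transdifferentiated libraries, at 38.9, 40.1 and 38.9 RPKM in alpha libraries and at 104, 106 and 95.2 RPKM in beta libraries. Transdifferentiated and beta libraries overlapped far above the alpha libraries, and the rise against alpha cells was 1.23 (adjusted p = 0.000236).

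Among 7 potassium-coupled transporters, 1 was higher and 0 lower in transdifferentiated than in beta cells, 3 were higher and 0 lower than in alpha cells, with 1 higher and 2 lower in alpha cells when set against beta cells. Slc12a7, a potassium-chloride cotransporter, was at 23.8 and 18.1 RPKM in transdifferentiated libraries, at 2.90, 3.51 and 4.29 RPKM in alpha libraries and at 17.2, 22.9 and 24.7 RPKM in beta libraries, and rose by 2.41 against alpha cells (adjusted p = 0.000473). Slc12a5, another cotransporter of this kind, was at 7.04 and 4.73 RPKM in transdifferentiated libraries, at 2.37, 2.72 and 3.36 RPKM in alpha libraries and at 2.02, 2.44 and 2.26 RPKM in beta libraries. Its transdifferentiated libraries were above all others, and it rose by 0.94 against alpha cells (adjusted p = 0.0182) and by 1.20 against beta cells (adjusted p = 0.0218). The first call was lost without transdifferentiated replicate 1 (0.117), alpha replicate 1 (0.0506) and alpha replicate 2 (0.0558), and the second without transdifferentiated replicate 1 (0.0601), alpha replicate 2 (0.0502), beta replicate 1 (0.0698) and beta replicate 3 (0.0937). Of 7 other potassium-conducting channels, limma called 0 against beta cells, 2 were higher and 0 lower than in alpha cells, with 1 higher and 1 lower in alpha cells when set against beta cells. Hcn4, a channel opened by hyperpolarization, was at 3.60 and 4.13 RPKM in transdifferentiated libraries, at 0.530, 0.392 and 0.504 RPKM in alpha libraries and at 6.11, 4.61 and 4.17 RPKM in beta libraries. The transdifferentiated libraries were just below the beta libraries, and the rise against alpha cells was 2.13 (adjusted p = 0.000382). Hcn2 against alpha cells was lost without any 1 library other than transdifferentiated replicate 1 (0.0712 to 0.201).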

How the data were processed

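RNA from 2 transdifferentiated, 3 alpha and 3 beta libraries was measured by sequencing. The authors deposited RPKM per gene and library; the tools named in the submitters' processing notes are STAR 2.5, featureCounts and edgeR 3.14.0, on build GRCm38.p4. For the annotation and strand setting nothing is stated in those sources. The kit in the labels' protocols, TruSeq RNA v2, keeps no strand information.

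Values were tested with limma 3.58.1 in R 4.3.3 (lmFit, then eBayes with a trend) on log2(RPKM + 0.5), in 1 fit of all 8 libraries with group and sex as terms, over 15228 genes at 0.5 RPKM or more in at least 2 libraries. Calls are those with an adjusted p (Benjamini-Hochberg, over all tested genes) below 0.05. This scale understates the changes of low genes. Coordinates are those of GENCODE release M21 (GRCm38), and the code was tested on simulated data.

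Whole reads were recovered from the RPKM steps: 78.5% of 25353 expressed genes matched by symbol (19911) came out whole in all libraries within 0.01 of a read at their annotated length, and the length of 5777 more was solved from their own steps. Limma voom on these reads was 1 of 17 alternatives. Of all per-sample columns 0 were left unused, and 4 entries whose name occurs more than once were dropped.

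Genes were given in full when called with a log2 fold change of at least 1 and a mean of at least 2 RPKM, when highest in their class, or when on a list of islet channel genes (22 genes). Another 4 of the 43 genes are counted but not reported here one by one or drawn. The genes and lists were chosen with earlier results of these data known. For genes whose steps differ from the annotation, the lengths used for counting are not stated. They were inferred as the shortest length that gave whole reads, which limits comparison of levels between genes. Labels share no replicate numbers between groups, so no paired fit was made.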

Additional observations from a re-analysis of the deposited data

How the results depend on the processing

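The fits were recomputed under 17 other settings. Of 53 calls over the 43 genes, 30 were called in every setting that gave a value and 23 were lost in at least 1. Over 1113 recomputed values of the 22 genes given in full, 1012 kept direction and side of the threshold, 57 lost a call, 17 gained one and 27, none of them called, changed sign. Without a filter on low values 3 genes were called between transdifferentiated and beta cells. Leaving out 1 library each gave 2 to 7 calls against beta cells, 13 to 16 against alpha cells and 17 to 29 between alpha and beta cells. The cause of these changes was not tested. Where a transdifferentiated library is left out, the lone one is assumed to vary like the other groups.

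Sign changes of transdifferentiated against alpha cells, on the log2 scale, were as follows. For Kcnma1 median-ratio scaling gave -0.111 and quantile normalization gave -0.105. The letter b as a term gave -0.006 for Kcnf1. Over the fits without 1 library, Kcnf1 ranged from -0.015 to 0.457, Kcnma1 from -0.218 to 0.39 and Kcnrg from -1.189 to 0.349.

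Against beta cells, median-ratio scaling gave -0.08 for Kcnh2 and -0.051 for Kcnj12, and quantile normalization gave -0.139 for Kcnj12. The letter b as a term gave -0.124 for Kcnh2, -0.072 for Kcnj12 and 0.008 for Kcnmb2, and leaving out the sex term gave 0.008 for Kcnmb2. Voom gave 0.072 for Kcnn1, and a pseudocount of 0.1 gave -0.2 for Kcnrg. Without 1 library each, Kcng3 ranged from -0.501 to 0.316, Kcnh2 from -0.038 to 0.233, Kcnj12 from -0.476 to 0.791, Kcnmb2 from -0.158 to 0.16, Kcnn1 from -0.116 to 0.046 and Kcnrg from -0.559 to 0.979. For alpha against beta cells, Kcnn3 ranged from -0.098 to 0.174.

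No paired analysis was possible because the labels give no replicate numbers shared between the groups. Precision is limited by the transdifferentiated libraries, in both of which 16 of the 43 genes had under 10 reads. Of the calls, 2 against beta cells and 6 against alpha cells rest on such genes.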

Other observations

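Genes next to Kcnab3 were looked up after its values were seen. Cntrob, 2482 bases away on the opposite strand, was at 15.1 and 10.8 RPKM in transdifferentiated libraries, at 2.88, 2.53 and 2.66 RPKM in alpha libraries and at 6.82, 5.20 and 5.87 RPKM in beta libraries. The order of the groups was that of Kcnab3. Over all genes tested 41.2% had a transdifferentiated mean above both other groups, a looser pattern that leaves the order of beta and alpha cells open. Chd3, 10230 bases away on the opposite strand, had another order, with alpha above beta libraries. It was at 38.7 and 33.2 RPKM in transdifferentiated, 26.5 to 30.7 RPKM in alpha and 21.5 to 24.4 RPKM in beta libraries. Trappc1, 464 bases away on the same strand, was at 64.3 and 49.8 RPKM in transdifferentiated libraries, at 38.7, 37.1 and 36.4 RPKM in alpha libraries and at 50.1, 44.5 and 46.9 RPKM in beta libraries. By the mean its groups also had the order of Kcnab3, while its transdifferentiated and beta libraries overlapped.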
